A study of Sus scrofa with 20 samples.

Results

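The miRNAs described here came from 3 related gene clusters, in which a member of the miR-99/100 family, a let-7 and a miR-125 lie near each other on a chromosome. They were chosen by name and cluster from the read counts against the human miRNA reference. The 9 members are hsa-miR-99b-5p, hsa-let-7e-5p and hsa-miR-125a-5p of the miR-99b cluster, hsa-miR-99a-5p, hsa-let-7c-5p, hsa-let-7c-3p, hsa-miR-125b-5p and hsa-miR-125b-2-3p of the miR-99a cluster, and hsa-miR-100-5p of the miR-100 locus. The prefix, which names the human reference, is left out from here on. They are 9 of the 608 miRNAs listed and 9 of the 245 that had enough reads to be tested, so no member was lost to the low-count filter. The corresponding 7 entries of the pig miRNA reference (miR-99b, let-7e, miR-125a, miR-99a, let-7c, miR-125b and miR-100) were read beside them. They hold largely the same reads and are a check on the assignment of reads, not further evidence.

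Small RNA was sequenced from PBMCs, the mononuclear blood cells (chiefly lymphocytes with monocytes), which were isolated by density gradient. The donors were female American Yorkshire pigs aged 80 to 90 days and weighing 36 to 41 kg. The 10 Control libraries came from blood of untreated pigs, taken before intracerebral hemorrhage (ICH), and the 10 ICH libraries from blood taken 6 h after it. ICH is bleeding into the brain. It was modelled by passing a catheter through a burr hole and injecting 2 to 4 mL of autologous blood into white matter of the frontal brain. The labels name no genetic change and no drug in either group. Replicate numbers 1 to 10 occur in both groups, and the samples were paired by them. There was no operated group without blood injection among these samples, so the hemorrhage, the surgery and the hours that passed cannot be told apart.

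miRNAs are short RNAs that guide Argonaute proteins to matching messenger RNAs and lower their translation or stability. Each hairpin precursor gives a 5p and a 3p arm, of which usually only 1, the guide, is loaded in quantity. Clustered hairpins can be cut from a single primary transcript, but each hairpin is then processed and its products decay separately. The let-7 family represses growth genes such as HMGA2 and RAS and is itself held back by LIN28. The miR-125 family, the relative of worm lin-4, acts in blood stem cells, lymphocytes and macrophages. The miR-99/100 family targets MTOR and IGF1R. The same family arrangement was copied during vertebrate evolution, so each member has paralogs of nearly the same sequence elsewhere in the genome.

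In RefSeq's pig gene table (build Sscrofa11.1, also named in the submitters' processing notes), the miR-99b cluster was the tightest of the 3. MIR125A lies at chr6:58331566-58331645, MIRLET7E at chr6:58332042-58332121 and MIR99B at chr6:58332211-58332280, with 396 and 89 bases between neighbours, and none of them falls inside the interval of another gene. MIR99A at chr13:181302483-181302562 and MIRLET7C at chr13:181303209-181303302 have 646 bases between them and both lie inside the interval of LOC106508546, which the table gives as protein coding. At the miR-100 locus, MIR125B-1 is at chr9:49109435-49109514, inside the interval of the long non-coding RNA gene LOC106504205. MIRLET7A-1 is at chr9:49152586-49152665 and MIR100 at chr9:49157909-49157988, 48394 bases beyond MIR125B-1. Exons are not part of that table, so only gene intervals were compared. MIR125B-2 was not matched.

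The libraries held 919313 to 2177834 human-reference reads, and the Control and ICH totals were alike (1393770 ± 393783 and 1406400 ± 388000, mean ± SD, n = 10 each). Some lymphocyte, myeloid and red cell miRNAs, and of the platelet miRNAs only miR-126-3p, also differed between the groups. Their values are given beside the results they accompany. The labels name neither extraction nor sequencing batches, though the sample descriptions of all libraries carry the same lane code.

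The clusters differed greatly in abundance. Levels are given as CPM, counts relative to a library size that TMM scaling corrects for differences in library makeup. miRNAs are of nearly one length, so no correction for length was made, but adapters join to different miRNAs with different ease, and an order of reads is not strictly an order of molecules. miR-99a-5p was the most abundant member at 19854 ± 5431 CPM (SD, n = 20 libraries) and ranked 11 of the 608 miRNAs. let-7c-5p followed at 3964 ± 1441 CPM and miR-125b-5p at 1359 ± 266 CPM. let-7e-5p had 310.3 ± 69.6 CPM, miR-125a-5p 281 ± 84.8, miR-125b-2-3p 205 ± 54.9 and miR-99b-5p 72.4 ± 27.4. miR-100-5p had 28.98 ± 8.27 CPM and let-7c-3p, the minor arm of its hairpin, 8.67 ± 5.98, which put it at rank 241.

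This order held in 20 of 20 libraries for 6 of the 8 neighbouring pairs. The exceptions were let-7e-5p over miR-125a-5p, which held in 12 of 20 libraries (4 Control and 8 ICH), and miR-125a-5p over miR-125b-2-3p, which held in 14 of 20. The neighbours in those 2 pairs did not differ beyond their spread. As plain shares of reads, the miR-99a cluster made up 2.38% ± 0.471 of Control reads and the miR-99b cluster 0.0770% ± 0.0126 (SD, n = 10). miR-99a-5p alone supplied 78.5% ± 2.48 of the miR-99a cluster's Control reads. In the miR-99b cluster miR-99b-5p supplied 11.8% ± 3.39, while let-7e-5p and miR-125a-5p shared most of the rest with 43.5% ± 7.03 and 44.7% ± 6.54. Among the 5p arms, the member of the miR-99 family was thus the most abundant in one cluster and the least abundant in the other.

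miR-125b-5p is encoded at both the miR-99a cluster and the miR-100 locus, and the mature 5p arms of these hairpins cannot be told apart by their reads. The 3p arms can. miR-125b-2-3p, from the miR-99a cluster, had 5626 reads over the 20 libraries. miR-125b-1-3p, from the miR-100 locus, had 7, found in 5 libraries with at most 2 in any of them. That is 0.124% of the reads of both 3p arms (95% Wilson interval 0.0602% to 0.256%, which covers counting error only, as no molecular identifiers mark PCR copies). The share of 3p reads is not the share of 5p reads where the hairpins keep their 3p arms unequally. Both counts are of pig reads assigned to human 3p entries, and the pig entries read beside them hold no separate miR-125b 3p arm. How well each human 3p entry matches the pig sequence was not checked. The split may therefore not be that of the pig hairpins. miR-125b-5p is counted with the miR-99a cluster in the sums given here.

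After ICH, the miR-99b cluster was lower. Its share of all reads was 0.0770% ± 0.0126 in Control, between 0.0596% and 0.0959%, and 0.0560% ± 0.00571 in ICH, between 0.0476% and 0.0680%. The share was lower in ICH for 10 of the 10 replicate numbers, although the ranges of the groups overlap. The miR-99a cluster went from 2.38% ± 0.471 to 2.67% ± 0.752, with a higher share in 6 of 10 numbers. miR-100-5p was at 0.00290% ± 0.000849 and 0.00292% ± 0.000975, higher in 5 numbers and lower in 5. PBMCs are mixed cells, and fewer cells of a type cannot be told apart from less of a miRNA per cell.

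Of the 9 members, 2 were called lower in ICH and 1 higher in edgeR's quasi-likelihood test with the replicate number as a block and Benjamini-Hochberg adjustment over the 245 miRNAs tested. The same test called 6.12% of all tested miRNAs lower and 13.1% higher. The members' median log2 fold change was 0.11 and that of all tested miRNAs 0.03, and members lay on both sides of it. Without the block, 1 member was called lower and none higher, where 0.816% of the tested miRNAs were called lower and 2.86% higher. In the pig-reference counts 2 of the 7 entries were called lower and 1 higher with the block, beside 10.1% lower and 11.7% higher of the 179 tested, and their median was 0.04 against -0.04 for all tested. Without the block, edgeR called 0 of the 7 pig entries and 0% of the 179 in either direction. In that fit 2 of the 7, both lower, had an unadjusted p under 0.05, beside 35 of the 179, 21 of them lower.

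**Figure D1:**
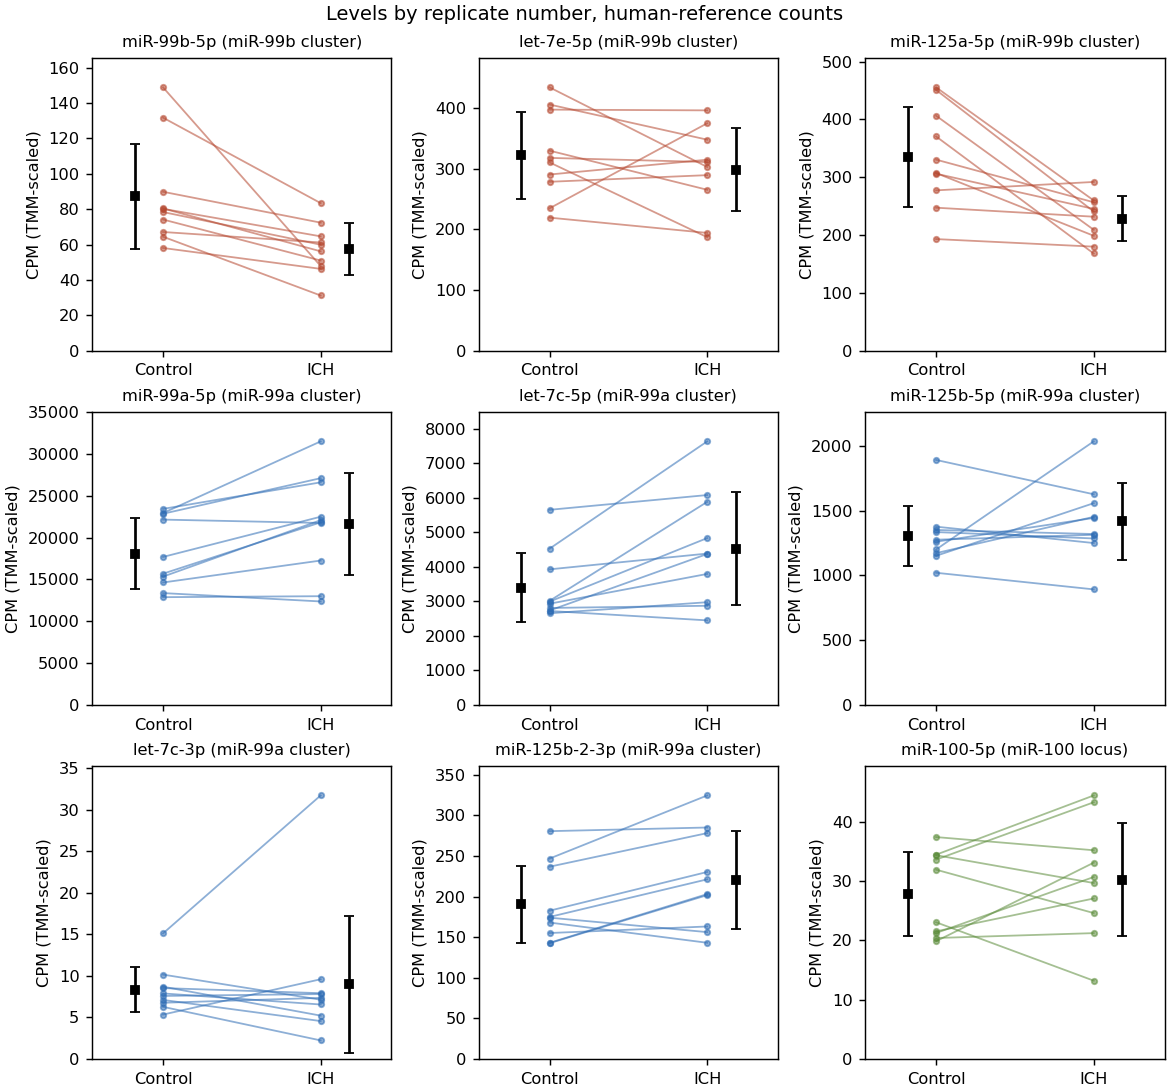
Levels of the 9 members in CPM (vertical axes from 0, TMM-scaled, human-reference counts); each line joins the Control and ICH library of a replicate number, and black squares with bars are group means ± SD (n = 10). miR-99b-5p fell in 10 of 10 numbers and miR-125a-5p in 9, while let-7c-5p rose in 9.

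miR-99b-5p fell. Its lowest, median and highest values were 58.1, 79.3 and 149 CPM in Control and 31.3, 58.1 and 83.5 CPM in ICH. The groups overlap: 5 ICH libraries lay below the lowest Control library and 3 Control libraries above the highest ICH library. It was lower in ICH for 10 of 10 replicate numbers, from -0.13 (number 6) to -1.61 (number 2) on the log2 scale, and for 9 of 10 as a plain share of reads. The fitted log2 fold change was -0.57 ± 0.13 (SE; 95% interval -0.85 to -0.29), a level 0.674 times that of Control (edgeR, adjusted p = 0.00364). Control 2 was the highest library, and without number 2 the change was -0.51 ± 0.12 (edgeR, adjusted p = 0.00563). Without the replicate block it was -0.60 ± 0.18 and just missed the threshold (edgeR, adjusted p = 0.0511). These values rest on 42 to 190 reads a library.

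miR-125a-5p, the miR-125 of the same cluster, fell by a like amount. It lay between 193 and 455 CPM in Control with a median of 319, and between 168 and 292 CPM in ICH with a median of 236. Here 7 Control libraries exceeded the highest ICH library and 2 ICH libraries were below the lowest Control library. The log2 fold change was -0.53 ± 0.12 (95% interval -0.77 to -0.28; 0.695 times the Control level; edgeR, adjusted p = 0.00244), with lower values in 9 of 10 numbers. The exception was number 5, at 0.07. Without the block the change was -0.55 ± 0.15, and the call stood (edgeR, adjusted p = 0.0263).

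let-7e-5p, encoded between the other 2 hairpins, was not called. Its Control values ran from 220 to 434 CPM around a median of 314 and its ICH values from 187 to 396 CPM around a median of 307. The log2 fold change was -0.12 ± 0.11, with an interval of -0.35 to 0.11 (edgeR, adjusted p = 0.547), and the level was lower in 7 of 10 numbers. Numbers 6 and 8 went furthest in opposite directions, at -0.72 and 0.67. Within the cluster, let-7e-5p went from 43.5% ± 7.03 to 50.7% ± 6.79 of the reads, miR-125a-5p from 44.7% ± 6.54 to 39.5% ± 6.79 and miR-99b-5p from 11.8% ± 3.39 to 9.86% ± 2.31.

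Whether let-7e-5p changed differently from its neighbours was tested on ratios of reads taken inside a library, where scaling cancels out. The log2 ratio of let-7e-5p to miR-99b-5p went up by 0.47 ± 0.56 (SD of 10 within-number changes; interval 0.06 to 0.86). Its exact sign-flip test, 2-sided over the 10 numbers, missed the threshold after adjustment over the 13 ratios computed (adjusted p = 0.0653). The ratio of miR-125a-5p to let-7e-5p changed by -0.41, with an interval of -0.78 to -0.04 (exact sign-flip test, adjusted p = 0.0653). The ratio of miR-125a-5p to miR-99b-5p changed by 0.06 ± 0.53, lower in 4 numbers and higher in 6, with an interval of -0.33 to 0.44 (exact sign-flip test, adjusted p = 0.793). A separate behaviour of let-7e-5p inside the cluster was therefore not established.

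let-7c-5p, the let-7 of the miR-99a cluster, rose. Its lowest, median and highest values were 2656, 2964 and 5655 CPM in Control and 2450, 4380 and 7638 CPM in ICH. The ranges overlap widely, with 3 ICH libraries above the highest Control library, but the level was higher in ICH for 9 of 10 numbers, number 4 being the exception at -0.15. The log2 fold change was 0.38 ± 0.10 (interval 0.16 to 0.59; 1.30 times the Control level; edgeR, adjusted p = 0.0125). This call was the least firm of the 3. Without the block the change was 0.41 ± 0.18 (edgeR, adjusted p = 0.211), and with library totals in place of TMM it was 0.27 (edgeR, adjusted p = 0.067). It was also lost when number 1, 5 or 8 was left out.

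miR-99a-5p, its neighbour and the dominant product of the cluster, had 12883 to 23442 CPM in Control (median 16695) and 12372 to 31512 CPM in ICH (median 21960). The level was higher in ICH for 8 of 10 numbers. The log2 fold change of 0.23 ± 0.087, with an interval of 0.06 to 0.41, did not pass after adjustment (edgeR, adjusted p = 0.0589). As a plain share of reads miR-99a-5p was higher in 6 numbers and lower in 4. The ratio of let-7c-5p to miR-99a-5p changed by 0.14, with an interval of -0.07 to 0.36 (exact sign-flip test, adjusted p = 0.251), so a difference between these neighbours was not shown either.

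miR-125b-5p, the paralog of miR-125a-5p, was not called. It lay between 1020 and 1890 CPM in Control (median 1267) and between 891 and 2033 CPM in ICH (median 1381), higher in 5 numbers and lower in 5. The log2 fold change was 0.11 ± 0.10, with an interval of -0.09 to 0.32 (edgeR, adjusted p = 0.511). Its sign depended on the scaling: with upper-quartile scaling the value was -0.0039, and without number 6 it was -0.0029. The passenger arm miR-125b-2-3p had medians of 174 CPM in Control and 212 CPM in ICH and was higher in 8 numbers, at 0.21 ± 0.099 (edgeR, adjusted p = 0.16). The ratio of this arm to miR-125b-5p changed by 0.09, with an interval of -0.17 to 0.35 (exact sign-flip test, adjusted p = 0.496).

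miR-100-5p and let-7c-3p were the sparsest members. miR-100-5p, with 19 to 81 reads a library, ranged from 19.8 to 37.4 CPM in Control and from 13.2 to 44.4 CPM in ICH, and its log2 fold change was 0.13 ± 0.16 (interval -0.19 to 0.45; edgeR, adjusted p = 0.625). let-7c-3p had 2 to 30 reads a library. Its log2 fold change was -0.02 ± 0.23, and the interval of -0.50 to 0.47 is too wide to exclude changes as large as those called for other members (edgeR, adjusted p = 0.981). Relative to its own guide arm, let-7c-3p was lower in 8 of 10 numbers, with a change of -0.52 ± 0.53 in the log2 ratio (exact sign-flip test, adjusted p = 0.0406). With the mean log2 ratio of each group turned back into a ratio, there were 391.5 let-7c-5p reads for each let-7c-3p read in Control and 560.5 in ICH. That call was lost in 8 of 13 alternative settings, among them the fit without the block (adjusted p = 0.129) and the removal of number 2, 3, 5, 7, 8, 9 or 10.

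**Figure D2:**
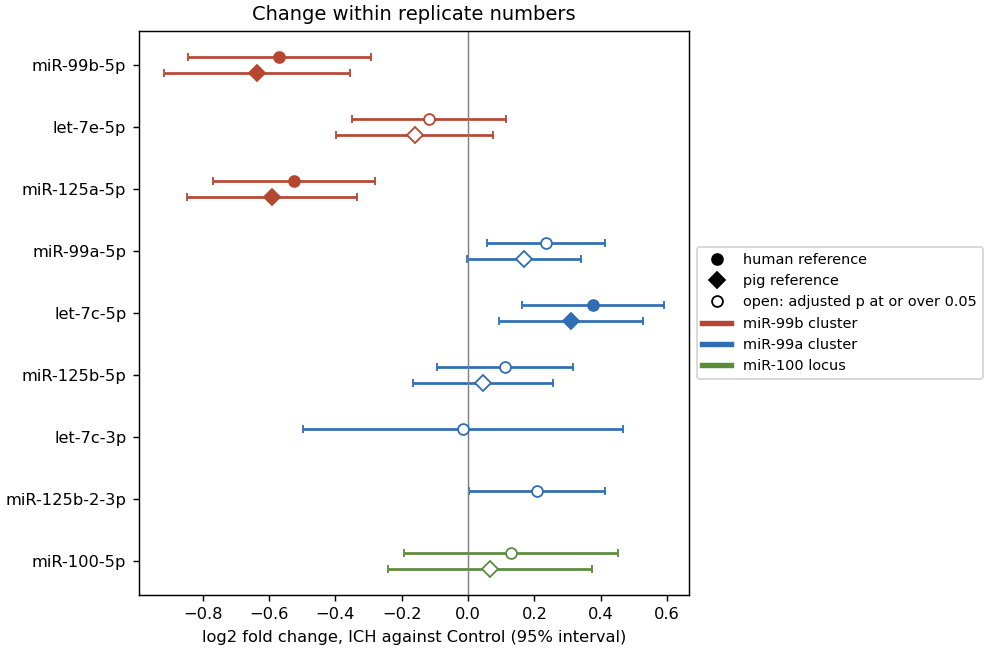
Log2 fold change of ICH against Control within replicate numbers for the 9 members (circles, human reference) and the 7 pig entries (diamonds), with 95% intervals from edgeR; filled symbols have an adjusted p under 0.05. miR-99b-5p and miR-125a-5p lie near -0.6 to -0.5 in both references, let-7c-5p lies above 0, and the let-7e-5p intervals include 0.

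The pig reference gave the same calls. miR-99b changed by -0.64 ± 0.13 (edgeR, adjusted p = 0.00245) and miR-125a by -0.59 ± 0.12 (edgeR, adjusted p = 0.00245), each lower in 10 of 10 numbers. let-7c rose by 0.31 ± 0.10 on the log2 scale (edgeR, adjusted p = 0.0396). The other 4 entries were not called, with let-7e at -0.16, miR-99a at 0.17, miR-125b at 0.04 and miR-100 at 0.07 (edgeR, adjusted p = 0.318, 0.156, 0.75 and 0.749). Without the block, miR-99b and miR-125a had the smallest adjusted p of the pig table, 0.0505 each in edgeR.

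The human and pig counts of miR-99b were identical in every library, and those of miR-125a, miR-99a, miR-125b and miR-100 differed by at most 3 reads. let-7 counts moved more. let-7e had 27 to 94 more reads a library under the pig reference, 1.10 to 1.29 times the human count, and let-7c differed by -41 to 41 reads. let-7 members differ from one another at few positions, and let-7a-5p and let-7f-5p are far more abundant, at 54648 and 161419 CPM. The sources used here do not say how reads that match several miRNAs were assigned, and the levels of the let-7 members, and of the near-identical miR-99a and miR-100, are uncertain to that extent.

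The paralogs moved apart, and here the difference itself was tested. Reads of one paralog per read of the other are given, here and below, as a group's mean log2 ratio turned back into a ratio. For each miR-99b-5p read there were 210.1 miR-99a-5p reads in Control and 370.2 in ICH. The log2 ratio of miR-99b-5p to miR-99a-5p went from -7.72 ± 0.50 to -8.53 ± 0.29, with Control values between -8.18 and -6.48 and ICH values between -8.89 and -7.99. 8 ICH libraries lay below the lowest Control library and 7 Control libraries above the highest ICH library. The change was -0.82 ± 0.35 (SD, n = 10 numbers; 95% interval -1.07 to -0.58) and lower in 10 of 10 numbers (exact sign-flip test, p = 0.00195, the smallest that 10 numbers allow; adjusted p = 0.0127). Control 2 stood high in this ratio, and without number 2 the change was -0.74 ± 0.26 (exact sign-flip test, adjusted p = 0.0254).

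The miR-125 paralogs separated in the same direction. There were 3.97 miR-125b-5p reads for each miR-125a-5p read in Control and 6.16 in ICH. The log2 ratio of miR-125a-5p to miR-125b-5p changed by -0.63 ± 0.31 (interval -0.86 to -0.41) and was lower in 10 of 10 numbers (exact sign-flip test, p = 0.00195; adjusted p = 0.0127). Both this ratio and that of miR-99b-5p to miR-99a-5p stayed past the threshold in 14 of 14 alternative settings, including the test without pairing (adjusted p = 0.0157 and 0.0013).

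For the let-7 paralogs, let-7c-5p reads per let-7e-5p read went from 10.4 to 14.7. The log2 ratio of let-7e-5p to let-7c-5p changed by -0.49 ± 0.34 (interval -0.71 to -0.25), lower in 9 of 10 numbers (exact sign-flip test, adjusted p = 0.0169). Number 4, at 0.12, was the exception, and without pairing the test missed the threshold (adjusted p = 0.0666). miR-99b-5p also fell against miR-100-5p, from 3.08 to 1.93 reads of miR-99b-5p for each read of miR-100-5p. That change was -0.67 ± 0.56 (interval -1.07 to -0.26), lower in 9 of 10 numbers with number 4 at 0.41 (exact sign-flip test, adjusted p = 0.0254). It missed the threshold when number 2, 3, 5, 7 or 10 was left out (adjusted p = 0.0508 each time).

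The remaining ratios inside the miR-99a cluster, and that of miR-125b-5p to miR-100-5p, were not called. The latter pair shares the miR-100 locus through MIR125B-1, although the sums count miR-125b-5p with the miR-99a cluster. miR-125b-5p against miR-99a-5p changed by -0.12 (interval -0.34 to 0.07), against let-7c-5p by -0.27 (interval -0.57 to 0.04) and against miR-100-5p by 0.02 (interval -0.31 to 0.38), with adjusted p of 0.322, 0.143 and 0.895 in the exact sign-flip test. Of the 13 ratios, the 4 between paralogs and the 1 between the arms of let-7c passed, and 0 of the 7 between members of one cluster or locus did. 2 of those 7 had an unadjusted p under 0.05 in the same exact test, both of them ratios with let-7e-5p.

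**Figure D3:**
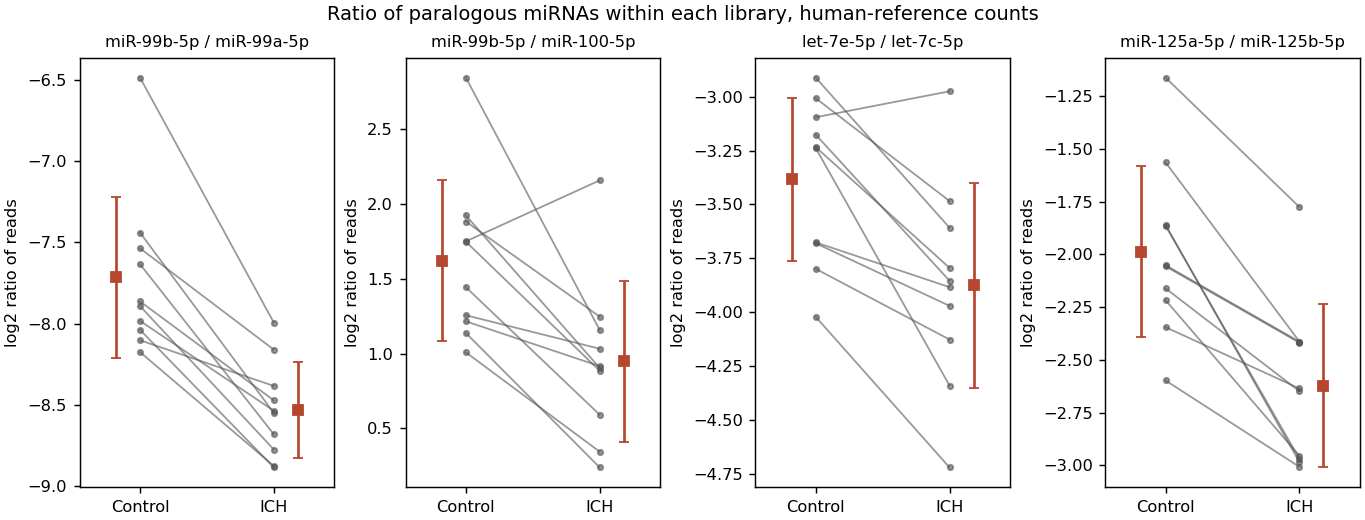
Log2 ratio of reads of paralogous miRNAs within each library; lines join the libraries of a replicate number and squares with bars are group means ± SD (n = 10). The ratios of miR-99b-5p to miR-99a-5p and of miR-125a-5p to miR-125b-5p fell in 10 of 10 numbers and the other 2 in 9 of 10.

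Some miRNAs of known cell types moved between the groups as well. Over all tested miRNAs, edgeR with the block called 6.12% lower and 13.1% higher. Of the 8 tested lymphocyte miRNAs, 3 fell and 0 rose: miR-150-5p at -0.38, miR-181a-5p at -0.32 and miR-29a-3p at -0.42 (edgeR, adjusted p = 0.00898, 0.00856 and 0.00209). Their list had a median of -0.33 and summed to 27081 to 37283 CPM in Control and 21465 to 34698 CPM in ICH. Of the 7 tested myeloid miRNAs, 3 rose and 0 fell: miR-223-3p at 0.63, miR-223-5p at 0.82 and miR-27a-5p at 0.73 (edgeR, adjusted p = 0.00856, 6.75e-05 and 8.34e-05), with a list median of 0.19 and sums of 15826 to 18817 CPM in Control and 17701 to 21323 CPM in ICH. The other tested myeloid arms were not called: miR-23a-3p at -0.04, miR-27a-3p at 0.04, miR-24-3p at 0.11 and miR-24-2-5p at 0.19. Of the red cell miRNAs 2 of 4 rose (miR-144-3p at 0.47 and miR-486-5p at 0.63), with sums of 110.8 to 812 CPM and 429 to 1334 CPM. Of the platelet and vessel wall miRNAs 1 of 4 rose (miR-126-3p at 0.56), with sums of 2877 to 4339 CPM and 2810 to 4506 CPM. The other tested arms of that list, miR-126-5p at 0.38, miR-340-3p at 0.08 and miR-340-5p at -0.03, were not called. None of the 4 lists had a marker family at 0 throughout. The part of cell makeup in the falls of miR-99b-5p and miR-125a-5p and in the rise of let-7c-5p was not tested.

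Related miRNAs that are not members were read beside the let-7 and miR-99 members. One of them, let-7a-5p, also has a gene at the miR-100 locus (MIRLET7A-1). In each of the 7 other let-7 family members tested (let-7a, let-7b, let-7d, let-7f, let-7g and let-7i, all 5p, and miR-98-5p), edgeR with the block made no call. 2 of the 7 had an unadjusted p under 0.05, both higher: let-7d-5p at 0.28 ± 0.11 and let-7i-5p at 0.29 ± 0.11 (edgeR, adjusted p = 0.0704 and 0.0589). In the same test 76 of all 245 tested miRNAs had an unadjusted p under 0.05, 49 of them higher. The let-7 list ran from -0.14 to 0.29 with a median of 0.07. let-7c-5p at 0.38 was above that range, and let-7e-5p at -0.12 was within it. miR-10a-5p, whose sequence is related to that of miR-99 and miR-100 and whose gene lies in a HOX cluster, rose from 865 ± 242 to 1237 ± 337 CPM (0.52 ± 0.10; edgeR, adjusted p = 0.000901) in 10 of 10 numbers. miR-10b-5p, at 7.96 and 9.06 CPM, was not called (0.18 ± 0.22; edgeR, adjusted p = 0.618).

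The other arms of the hairpins were too rare to be tested. Over all 20 libraries miR-99a-3p had 174 reads, miR-99b-3p 54, miR-125a-3p 29, let-7e-3p 26 and let-7a-2-3p 1. Every guide arm far exceeded its partner, with 550026 reads for miR-99a-5p, 1997 for miR-99b-5p, 8140 for miR-125a-5p and 8681 for let-7e-5p. miR-125a-3p had 22 reads in Control and 7 in ICH.

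Across libraries, miR-99a-5p, let-7c-5p and miR-125b-2-3p varied together. Over the 20 libraries the log2 CPM of miR-99a-5p and let-7c-5p had a Pearson r of 0.87 (0.79 within Control and 0.90 within ICH), let-7c-5p and miR-125b-2-3p one of 0.89 (0.77 and 0.96), and miR-99a-5p and miR-125b-2-3p one of 0.85. miR-125b-5p followed less closely, at 0.59 with miR-99a-5p and 0.50 with let-7c-5p. The sparse let-7c-3p had 0.48 with miR-99a-5p, 0.43 with let-7c-5p and 0.37 with miR-125b-2-3p, where Spearman's rho was -0.01. In the miR-99b cluster r was 0.52 for miR-99b-5p with miR-125a-5p, 0.27 for miR-99b-5p with let-7e-5p and 0.22 for let-7e-5p with miR-125a-5p. The 0.52 was 0.33 within Control and 0.05 within ICH. miR-100-5p had 0.68 with let-7c-5p, 0.67 with miR-125b-2-3p and 0.62 with miR-99a-5p. Across all 29890 pairs of tested miRNAs the median r was 0.0033 and the central 90% ran from -0.55 to 0.57. These are descriptions over libraries that share their scaling and pairing, and the lower counts of miR-99b-5p and miR-100-5p add sampling noise. A difference in correlation between the clusters was not tested.

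**Figure D4:**
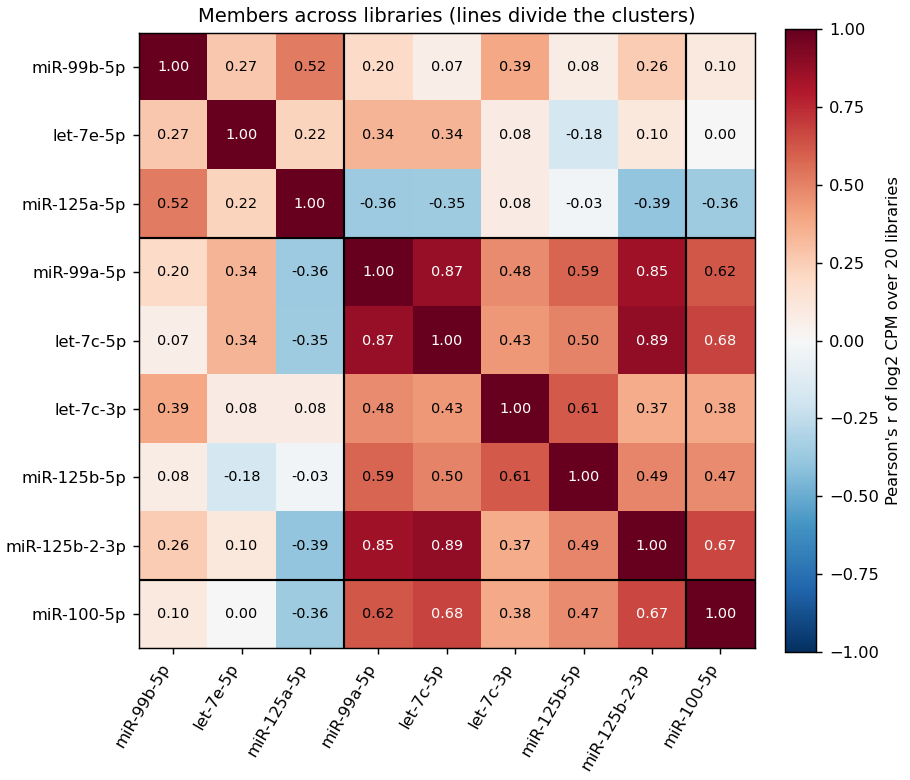
Pearson's r of log2 CPM between the 9 members over the 20 libraries (colour scale from -1 to 1; black lines divide the miR-99b cluster, the miR-99a cluster and miR-100-5p). miR-99a-5p, let-7c-5p and miR-125b-2-3p form a block of 0.85 to 0.89, while the miR-99b cluster holds values of 0.22 to 0.52.

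The tested miRNAs whose pattern over the 20 libraries was most like each guide arm were picked as the 3 with the highest r. For miR-99a-5p they were miR-182-5p (r = 0.90), let-7c-5p (0.87) and miR-125b-2-3p (0.85), and for let-7c-5p miR-182-5p (0.90), miR-125b-2-3p (0.89) and miR-99a-5p (0.87). For miR-100-5p they were let-7c-5p (0.68), miR-125b-2-3p (0.67) and miR-139-3p (0.64), and for miR-125b-5p let-7c-3p (0.61), miR-99a-5p (0.59) and let-7c-5p (0.50). The nearest 3 of these members were thus mostly products of the miR-99a cluster itself. let-7e-5p was closest to let-7f-5p (0.89), let-7g-5p (0.67) and miR-27b-3p (0.63). let-7f-5p is far more abundant, and whether let-7f-5p reads counted as let-7e-5p add to that r was not tested. miR-125a-5p was closest to miR-27b-3p (0.71), the lymphocyte marker miR-181a-5p (0.64) and miR-132-3p (0.61), and miR-99b-5p to miR-203a-3p (0.57), miR-1307-3p (0.57) and miR-181a-2-3p (0.54). None of the nearest 3 of the miR-99b cluster's members was a member of that cluster.

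Changes within replicate numbers were compared for 10 pairs of members, and none passed after adjustment over the 10 (permutation test with 100000 resamples; smallest adjusted p 0.198 for Pearson's r and 0.267 for Spearman's rho). The strongest was between the paralogs miR-125a-5p and miR-125b-5p, with r = 0.68 (permutation p = 0.0289), rho = 0.71 (permutation p = 0.0267) and r = 0.66 without the 2 farthest numbers. miR-99b-5p and miR-99a-5p had r = 0.63 (permutation p = 0.0396) and rho = 0.39 (permutation p = 0.262), but without numbers 2 and 3 r was -0.02, so the value rested on those numbers. Inside the clusters r was 0.58 for miR-99a-5p with let-7c-5p and 0.24 for miR-99b-5p with miR-125a-5p (permutation p = 0.0812 and 0.536). The fall of miR-99b-5p and that of miR-125a-5p were thus not shown to be linked in size from number to number.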

How the data were processed

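The authors deposited unnormalized counts of reads assigned to human and to pig miRNAs, filtered versions of both, and RPM tables. The unfiltered counts were used. Each deposited RPM value equalled the filtered count over that library's filtered total to within 0.005, and the filter kept 99.6% to 99.7% of human-reference reads. Per the labels' protocols, libraries were built from 500 ng of total RNA with a NEBNext small RNA kit. bcl2fastq, FastQC and Bowtie are named, with the builds Sscrofa11.1, GRCh38 and hg38, per the submitters' processing notes. Not given in the sources used here: versions, counting rules and the treatment of reads matching several miRNAs.

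Groups and replicate numbers came from the sample titles. Counts were tested with edgeR 4.0.16 in R 4.3.3 (robust quasi-likelihood fit, TMM, filterByExpr, replicate number as a block), adjusted by Benjamini-Hochberg over all miRNAs tested with a threshold of 0.05. Ratios within libraries used counts plus 0.5 and an exact 2-sided sign-flip test over the 10 numbers. Reads of one miRNA per read of another come from the mean log2 ratio of a group, not from summed reads. Intervals are 95%. Log2 CPM used a prior count of 2. Alternatives were no block, other scalings and filters, filtered counts, DESeq2 1.42.0, limma 3.58.1 (on voom values with the number as a random effect, and on log2(RPM + 1)), and each number left out. The scripts were tested on simulated data. Figures used matplotlib 3.10.9.

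The design text describes blood drawn around a single ICH induction. Same-numbered samples deviated together from their group means (r = 0.146 to 0.672, each over the minimum of 0.1), and the median r across different numbers was -0.071. Some pairs of different numbers were also over 0.1, the highest being Control 6 with ICH 5 (r = 0.47). Passing that minimum does not by itself pick out a pair. On both grounds samples were paired by number. In 7 of the 10 numbers, each library was the other's closest match. Control 4 was closer to ICH 2 (r = 0.27) than to ICH 4 (0.15). ICH 4 in turn was closer to Control 6 (0.42), Control 7 (0.35) and Control 5 (0.33) than to Control 4. Control 7 was closer to ICH 3 (0.46) than to ICH 7 (0.37). ICH 8 was closer to Control 9 (0.45) than to Control 8 (0.31). For those numbers the pairing is less certain. No 2 libraries of a group agreed within sampling noise (chi-square per degree of freedom at least 23.4). The labels do not say how separate the samples were beyond their numbers, so p-values speak for these samples only. With the block or pairing they weigh a change against the spread of changes within these numbers. Without it they weigh a change against the spread between these samples. All 9 members and 7 pig entries are named. Also named are the other arms, let-7 and miR-10 relatives, and the 3 miRNAs most like each guide arm. The marker miRNAs that passed are named too, with all others tested in the myeloid and platelet lists. The members and lists were chosen with earlier results of these data known.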

Additional observations from a re-analysis of the deposited data

Results flagged for a closer look

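In groups of 10 libraries, 7 of the 44 sets of values checked held a library set apart from the other 9 by a gap large against the group's range (Dixon's criterion, which chance meets in about 1 in 20 sets). 3 of the 7 involve miR-99b-5p, which enters several of the sets checked, and as many involve miR-125b-5p. Control 2 was highest in the log2 ratio of miR-99b-5p to miR-99a-5p, at -6.48 against -8.18 to -7.44 in the other Control libraries, and in that of miR-99b-5p to miR-100-5p, at 2.85 against 1.01 to 1.92. ICH 4 was highest in the ratio of miR-99b-5p to miR-100-5p, at 2.16 against 0.24 to 1.25. ICH 2 was highest in the log2 ratio of miR-125a-5p to miR-125b-5p, at -1.78 against -3.01 to -2.41. Control 9 was lowest in that of miR-125b-5p to let-7c-5p, at -2.17 against -1.56 to -1.02. Control 1 was highest in miR-125b-5p, at 10.89 log2 CPM against 9.996 to 10.43. ICH 1 was highest in let-7c-3p, at 5.05 log2 CPM against 1.87 to 3.46, where libraries held 2 to 30 reads.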

How the results depend on the processing

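The replicate block mattered most. Without it, members called by edgeR went from 3 to 1 in the human-reference counts and from 3 to 0 in the pig-reference counts, and the log2 ratio of let-7e-5p to let-7c-5p, unchanged at -0.49, missed the threshold (adjusted p = 0.0666). With each number left out in turn, the members called ranged from 2 to 3 in both references, and the change in the log2 ratio of miR-99b-5p to miR-100-5p from -0.79 to -0.56, past the threshold in 5 of 10 cases. miR-125a-5p was called in 18 of 18 alternatives and miR-99b-5p in 17 of 18, the exception being the test without the block. let-7c-5p was called in 11 of 18 and pig let-7c in 9 of 18. Pig miR-99a was called only with upper-quartile scaling (0.28; edgeR, adjusted p = 0.0226). The ratios of let-7e-5p to miR-99b-5p and of miR-125a-5p to let-7e-5p passed only without number 6. No called value changed sign. let-7c-3p was tested in only 11 of 18 alternatives. Scaling moved the whole table: the median of all human-reference miRNAs shifted by -0.11 with library totals and -0.12 with upper-quartile scaling, and calls went from 32 higher and 15 lower to 15 and 24, and to 18 and 29. In the pig-reference counts upper-quartile scaling shifted the median by 0.12. The ratios within libraries do not depend on scaling. Depth limits miR-99b-5p (42 to 190 reads a library), miR-100-5p (19 to 81) and let-7c-3p (2 to 30).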
